A study of Mus musculus with 28 samples.

Results

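RNA of the cerebral cortex was compared between 4 cKO mice and 4 Ctrl mice at postnatal day 24 (P24), and the genes that differed were sorted by the cell types and functions they belong to. These 8 libraries are all the P24 bulk libraries among the 28 libraries of the series, each from 1 mouse, and every gene that passed a filter on low counts entered the comparison. Mice of the cKO group had the mGFAP-Cre driver, which expresses Cre recombinase from a mouse Gfap promoter and so mainly in astrocytes, together with 2 loxP-flanked alleles of the gene the study targeted. Ctrl mice of the bulk libraries were sex-matched littermates with 1 or 2 loxP-flanked alleles and no driver. Effects of the deletion and of the driver itself therefore cannot be told apart in these 8 mice. All mice were on a C57BL/6J background, and P24 lies before the paralysis episodes that the cKO mice later develop. Other libraries are used only to read the same genes. These are cortex at P17 (4 cKO and 4 Ctrl mice) and cortex of other P24 mice (3 cKO and 3 Ctrl mice). The latter were used for translating ribosome affinity purification (TRAP). In it, ribosomes tagged in mGFAP-Cre cells were pulled down (IP) beside whole-cortex RNA (Input). The tag depends on Cre, so Ctrl mice used for TRAP must carry the driver, unlike the bulk Ctrl mice. A figure legend of the study gives them 1 or 2 loxP-flanked alleles and does not mention the driver.

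Astrocytes clear potassium and glutamate from the space around synapses, line blood vessels and the brain surface with their endfeet, and feed neurons. When tissue is disturbed they become reactive: they build up intermediate filaments, change their adhesion and their surface receptors, and may lose part of the transporter set of the resting cell. Bulk cortex holds RNA of neurons, glia, vessels and meninges together, so fewer cells of a type and less RNA per cell cannot be told apart.

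The 8 libraries held 12603888 to 14575306 counts, so that 3 counts corresponded to 0.202 to 0.238 CPM, the count scaled to library size that is used for all levels here, and 22495 genes passed the filter on low counts. Each group held 2 mice with Xist RNA and 2 without, so sex was balanced. Several libraries stood apart. Ctrl 1 and Ctrl 4 carried more olfactory bulb RNA than the other 6 mice, with summed CPM of 16 bulb interneuron markers of 444 and 527 against 219 to 287. Among the cKO mice, cKO 1 had the lowest level of reactive astrocyte genes, with a summed CPM of 13 pan-reactive genes of 841 against 1288 to 1623 in cKO 2, 3 and 4 and 283 to 376 in Ctrl.

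At an adjusted p under 0.05 (edgeR quasi-likelihood test, Benjamini-Hochberg over all genes tested, two-sided), 388 of 22495 genes differed, or 1.72%. Of these, 284 were higher in cKO (1.26% of genes tested) and 104 lower (0.462%). Only 109 of the 388, or 28.1%, belong to any list of cell types or functions used below, so most are in none. The genes that rose did so by a median log2 fold change of 0.69, 75 of them at least 2-fold, and in 275 of 284 every cKO mouse lay above every Ctrl mouse. The genes that fell changed by a median of -0.43, 15 of them at least 2-fold, and in 103 of 104 every cKO mouse lay below every Ctrl mouse. Over all genes tested, 4.25% were higher in every cKO mouse than in every Ctrl mouse and 3.41% lower, and the median log2 fold change was 0.00. Without Ctrl 1 and Ctrl 4 the count was 101 (79 higher, 22 lower), and without cKO 1 it was 950 (650 higher, 300 lower). The former fit holds only 2 Ctrl mice, so a call lost there does not by itself show a smaller change. Leaving out any 1 of the other 7 mice gave 216 to 272. Of the 127 called genes that are named here, 84 were called in each of the 8 fits that left out 1 mouse, all 127 without cKO 1, and 50 without both Ctrl 1 and Ctrl 4.

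Most genes that rose were enriched in the RNA pulled down with ribosomes of mGFAP-Cre cells. In the Ctrl mice used for TRAP, 71% of genes tested there differed between IP and Input RNA. Of the genes tested at P24, 16.9% were enriched in IP RNA (adjusted p under 0.05 and at least 2-fold), and these 3792 genes held 197 of the 284 genes that rose, or 69.4%. They held 50 of the 104 genes that fell, or 48.1%. Genes depleted from IP made up 20.3% of genes tested, and held 8 of the genes that rose (2.82%) and 26 of those that fell (25%). The median log2 enrichment in IP was 1.94 for the genes that rose, 0.61 for those that fell and -0.07 for all genes. Within the IP-enriched class itself the median P24 log2 fold change was 0.08. Without Ctrl 1 and Ctrl 4, the IP-enriched share was 78.5% of 79 genes that rose and 68.2% of 22 that fell, and without cKO 1 it was 56.8% of 650 and 30% of 300.

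**Figure D1:**
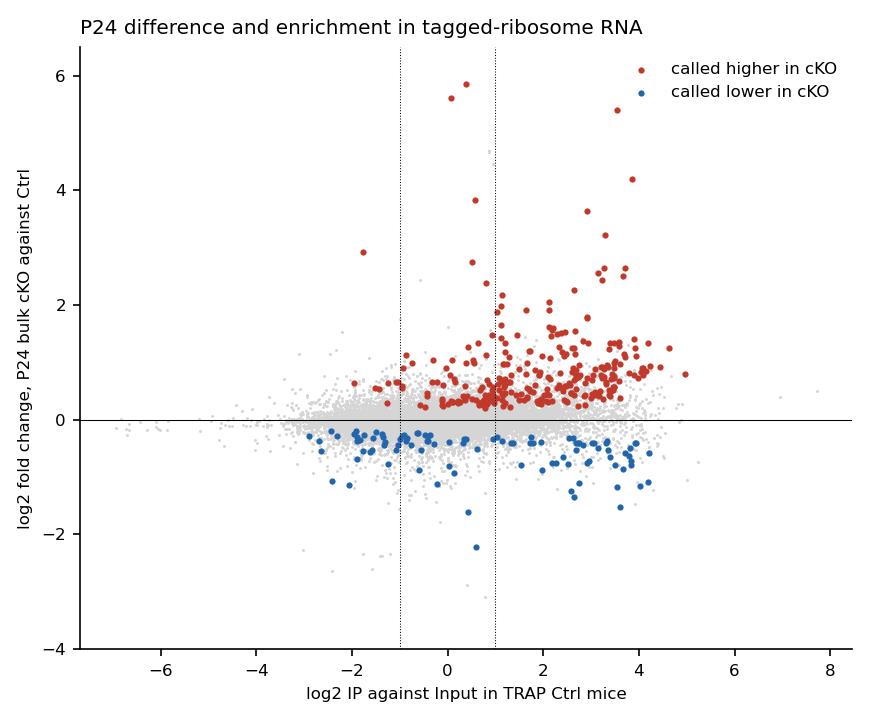
Each point is a gene, with its log2 enrichment in IP over Input RNA of 3 Ctrl mice used for TRAP on the x axis and its log2 fold change between 4 cKO and 4 Ctrl mice in P24 bulk cortex on the y axis. Red and blue points are genes called higher and lower in cKO, grey points were not called, and dotted lines mark a 2-fold enrichment or depletion; 197 of the 284 genes that rose are in the enriched class to the right and 8 in the depleted class to the left, and called genes at the targeted locus are not drawn.

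Astrocyte markers moved in both directions. Of 30 markers, all of them enriched in IP, 8 rose and 10 fell, and the median log2 fold change was -0.25. The genes that rose include channels for potassium and water, and those that fell include transporters of glutamate and GABA. Their summed CPM was 6903 to 7505 in cKO and 7527 to 7952 in Ctrl. Slc1a2 alone made up 1910.2 to 2188 CPM of this sum in cKO and 2421 to 3020.4 CPM in Ctrl. Of the 30, 5 rose and 3 fell without Ctrl 1 and Ctrl 4. In Input cortex of the other P24 mice the same 30 markers had a median log2 fold change of 0.31. There 1 was called higher and 0 lower, and the difference between these sets of mice was not tested.

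Kcnj10, the inward rectifier channel that takes up potassium, measured 318, 402, 378 and 378 CPM in cKO 1 to 4 and 187, 148, 162 and 185 CPM in Ctrl 1 to 4. The groups did not overlap, and the log2 fold change was 1.12 ± 0.09 (SE, adjusted p = 6.5e-05). Kcnj10 lies close to the targeted locus (below). Aqp4, the water channel of the endfoot, measured 124, 237, 220 and 170 CPM in cKO and 71.2, 82.8, 76.5 and 85.8 CPM in Ctrl. All cKO mice were higher, cKO 1 least so, for a log2 fold change of 1.25 ± 0.16 (adjusted p = 0.00183). Aldh1l1, a folate enzyme used as a pan-astrocyte marker, rose by 1.18 ± 0.13 on the log2 scale. Slc14a1, a urea transporter, rose by 0.72, Atp1b2, a sodium pump beta subunit that also acts in adhesion, by 0.60, and Mlc1 and Hepacam, which form a membrane complex at the endfeet, by 0.52 and 0.45. Sox9, the transcription factor of the astrocyte lineage, rose by 0.49, a call that was lost without cKO 2, cKO 4, Ctrl 2, Ctrl 3 or Ctrl 4 (adjusted p up to 0.0918). Mlc1, Hepacam and Sox9 were picked from the list after their values were seen.

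Slc1a2, the main glutamate transporter of astrocytes, measured 2188, 1935, 1910.2 and 1982 CPM in cKO 1 to 4 and 2421, 3020.4, 2650.1 and 2535 CPM in Ctrl 1 to 4. Every cKO mouse lay below every Ctrl mouse, and the log2 fold change was -0.41 ± 0.06 (adjusted p = 0.00658; picked after its values were seen). Slc6a11, the GABA transporter GAT-3, measured 92.9, 78.4, 88.0 and 85.2 CPM in cKO and 175, 124, 115 and 176 CPM in Ctrl. The cKO mice were all lower and Ctrl 1 and Ctrl 4 the highest, for a log2 fold change of -0.78 ± 0.13 (adjusted p = 0.00918), and without Ctrl 1 and Ctrl 4 it was -0.47 and still called (adjusted p = 0.0429). Slc7a10, which exchanges serine and other small neutral amino acids, fell by 0.75 ± 0.09 on the log2 scale, from 22.4 to 26.6 CPM in Ctrl to 11.7 to 15.7 CPM in cKO. Fam107a, an actin-binding protein of cortical astrocytes, fell by 0.85 ± 0.13, and Grin2c, the glutamate receptor subunit that astrocytes express, by 0.65 ± 0.11, a call lost without cKO 4 (adjusted p = 0.0514). Slc1a3, the second glutamate transporter, fell by 0.40, S100b by 0.41 and the cholesterol-esterifying enzyme Lcat by 0.50, all picked after their values were seen. The call of Slc1a3 was lost without cKO 3, cKO 4, Ctrl 2 or Ctrl 4 (adjusted p up to 0.0646).

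**Figure D2:**
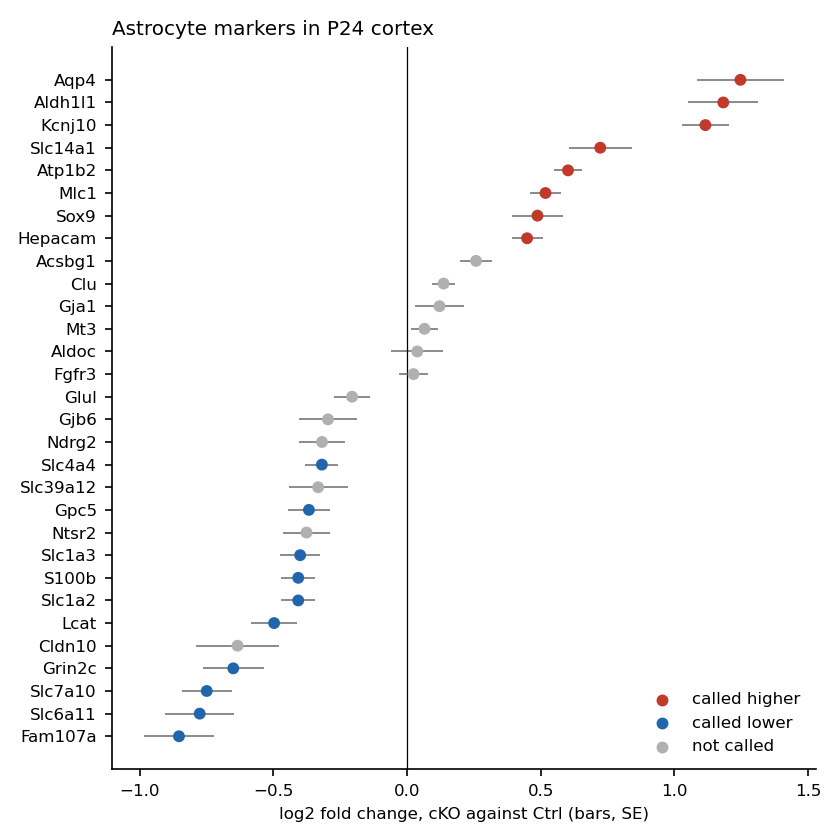
The log2 fold change between 4 cKO and 4 Ctrl mice in P24 bulk cortex (x axis, bars are SE) is shown for each of 30 astrocyte markers, ordered by value. The 8 red genes were called higher, from Hepacam at 0.45 to Aqp4 at 1.25, the 10 blue genes were called lower, from Fam107a at -0.85 to Slc4a4 at -0.32, and the grey genes were not called.

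Markers of other resident cell types passed the test rarely or not at all. No microglial marker of 20 was called (7 of 20 at an unadjusted p under 0.05, all higher; DESeq2 called 2, the likelihood ratio test 2), with a median log2 fold change of 0.19. The homeostatic markers Cx3cr1, P2ry12 and Tmem119 stood at -0.02 ± 0.05, -0.11 ± 0.07 and -0.02 ± 0.10. The complement genes C1qa and C1qb, picked after their values were seen, stood at 0.47 ± 0.13 and 0.42 ± 0.11 without passing (adjusted p = 0.123 and 0.0989). Without cKO 1, 6 of the 20 microglial markers rose. The 6 border macrophage markers had a median of -0.26, with none called and none at an unadjusted p under 0.05 (DESeq2 and the likelihood ratio test called 0), and Mrc1, Cd163 and Lyve1 stood at -0.19 ± 0.17, -0.33 ± 0.20 and -0.16 ± 0.34.

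Of 20 oligodendrocyte markers 1 rose, Gpr37, a receptor of myelinating cells, by 0.78 ± 0.12 (adjusted p = 0.00513), and its IP enrichment was 0.04 on the log2 scale. The 12 precursor markers gave no call (3 at an unadjusted p under 0.05, DESeq2 and the likelihood ratio test 0), with Pdgfra, Cspg4 and Gpr17 at -0.15 ± 0.06, -0.14 ± 0.08 and 0.22 ± 0.16. The 16 endothelial markers gave none either (0 at an unadjusted p under 0.05, 0 with either other tool), and Cldn5, Pecam1 and Flt1 stood at -0.05 ± 0.12, -0.14 ± 0.10 and -0.10 ± 0.08. The 12 mural cell markers (2 at an unadjusted p under 0.05, 0 with either other tool) had Pdgfrb, Kcnj8 and Abcc9 at 0.04 ± 0.09, 0.20 ± 0.17 and -0.06 ± 0.11. The summed CPM of the endothelial markers lay between 356 and 398 in all 8 mice.

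The 14 meningeal fibroblast markers gave no call (4 at an unadjusted p under 0.05, 0 with either other tool), and Col1a1, Col1a2 and Col3a1 stood at -0.35 ± 0.34, -0.32 ± 0.20 and 0.43 ± 0.26. Their summed CPM was 354 in Ctrl 1 and 233 in cKO 1, and 283 to 313 in the other 6 mice. The 9 tested ependyma and choroid plexus markers gave no call (0 at an unadjusted p under 0.05, 0 with either other tool). All 12 markers of that list summed to 18.8 to 421 CPM, lowest in cKO 1 and Ctrl 1 and with no order between the groups. Ttr, Folr1 and Foxj1 stood at -0.12 ± 1.05, -0.06 ± 0.58 and 0.27 ± 0.18. Red blood cell genes (5 tested, 0 at an unadjusted p under 0.05, 0 with either other tool) had Hba-a1, Hba-a2 and Hbb-bs at -0.11 ± 0.31, -0.14 ± 0.35 and -0.08 ± 0.25.

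None of 18 excitatory neuron markers was called (5 at an unadjusted p under 0.05, DESeq2 1, the likelihood ratio test 0), and Slc17a7 and Neurod2 stood at 0.11 ± 0.06 and 0.16 ± 0.09. Among 17 inhibitory neuron markers 2 fell, among them the RNA-editing family gene Adarb2 by 0.40, which was enriched in IP (log2 1.37). The inhibitory markers summed to 1381 to 1466 CPM in cKO and 1550.4 to 1763 CPM in Ctrl, with Ctrl 1 and Ctrl 4, the libraries richest in bulb RNA, the highest. Without those 2 libraries Adarb2 stood at -0.32 and was not called (adjusted p = 0.189). Of the fits without 1 mouse, Adarb2 lost the call without cKO 2, cKO 3, Ctrl 1 or Ctrl 2 (adjusted p up to 0.0578). Marcksl1, a growth-cone protein of immature neurons, was the only one of 12 such markers that fell, by 0.44, and without Ctrl 1 and Ctrl 4 it stood at -0.51 and was not called (adjusted p = 0.0904), nor without cKO 2, cKO 4, Ctrl 2, Ctrl 3 or Ctrl 4 alone (up to 0.0965).

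**Figure D3:**
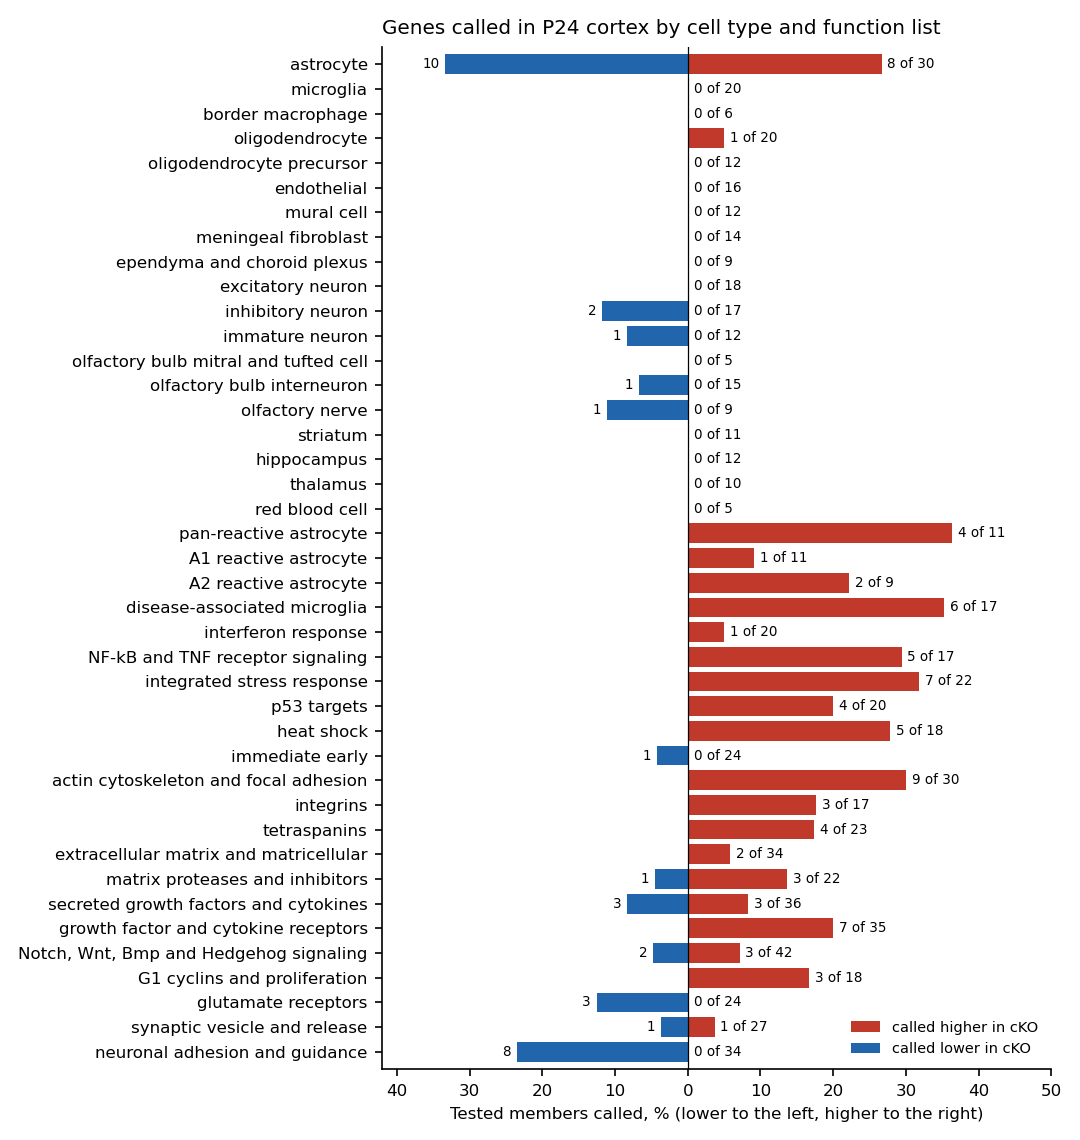
For each list of marker or function genes, the red bar to the right gives the percentage of tested members called higher in P24 cKO cortex and the blue bar to the left the percentage called lower, with the number called higher of the number tested, and the number called lower where above 0, printed at the bar ends. Astrocyte markers extend both ways (8 higher, 10 lower of 30), most function lists extend only to the right, and neuronal adhesion (8 of 34) and glutamate receptors (3 of 24) only to the left, while 1.26% of all genes were called higher and 0.462% lower. The lists were chosen with earlier results of these data known, so their shares are a description and not a test against all genes.

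Markers of olfactory bulb interneurons lay below 0, with a median further from 0 with the 2 Ctrl libraries rich in bulb RNA than without them. Sp8, a transcription factor of bulb interneurons, measured 1.01, 1.11, 1.53 and 1.07 CPM in cKO 1 to 4 and 7.92, 2.42, 2.24 and 9.37 CPM in Ctrl 1 to 4. Ctrl 1 and Ctrl 4 were several-fold above Ctrl 2 and Ctrl 3, which were themselves above the cKO mice. The log2 fold change was -2.21 ± 0.48 (adjusted p = 0.0395) and, without Ctrl 1 and Ctrl 4, -0.98 (adjusted p = 0.19), and the call was also lost without cKO 2, 3 or 4, Ctrl 1 or Ctrl 4 alone (adjusted p up to 0.134). All 15 bulb interneuron markers lay below 0, with a median of -0.78, or -0.27 without Ctrl 1 and Ctrl 4. All 15 had an unadjusted p under 0.05, while DESeq2 called 2 lower and the likelihood ratio test 7. Th, the dopamine-synthesis enzyme, stood at -2.60 ± 0.70 (adjusted p = 0.105; picked after its values were seen).

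The 5 tested mitral and tufted cell markers gave no call (2 at an unadjusted p under 0.05, and 2 each with DESeq2 and the likelihood ratio test), with Cdhr1 at -2.26 ± 0.56, Doc2g at -2.34 ± 0.57 and Shisa3 at 0.01 ± 0.06. Of 9 olfactory nerve markers tested 1 fell (5 at an unadjusted p under 0.05, all lower, DESeq2 3, the likelihood ratio test 4). This was Kirrel2, an adhesion molecule of olfactory axons, which fell by 1.25 ± 0.28 (adjusted p = 0.0434) and was enriched in IP (log2 2.58). Without Ctrl 1 and Ctrl 4 it stood at -1.05 and was not called (adjusted p = 0.217), and the call was also lost without any 1 mouse other than cKO 1. Gng4, a G protein subunit abundant in the bulb, fell by 1.12, and by 0.54 without those 2 libraries, where it was not called (adjusted p = 0.158; picked after its values were seen), nor without cKO 2, 3 or 4, Ctrl 1 or Ctrl 4 alone (up to 0.116). Of the lists of other regions, 11 striatal markers had a median of -0.49 (0 called, 0 at an unadjusted p under 0.05, 0 with either other tool), 12 hippocampal markers 0.19 (0 called, 4 at an unadjusted p under 0.05, 1 with each other tool) and 10 thalamic markers -0.03 (0 called, 3 at an unadjusted p under 0.05, 0 with either other tool). All 12 striatal markers of the list summed to 295 CPM in cKO 1 and 993 CPM in Ctrl 4, with the other 6 mice between 421 and 814. Drd1, Drd2 and Ppp1r1b of the striatum stood at -0.42 ± 0.28, -0.65 ± 0.49 and -0.34 ± 0.29, Prox1, Dsp and C1ql2 of the hippocampus at 0.23 ± 0.17, 0.10 ± 0.36 and 0.72 ± 0.17, and Tcf7l2, Lef1 and Prkcd of the thalamus at -0.27 ± 0.12, -0.05 ± 0.15 and 0.46 ± 0.15. The part of the dissection in these differences was not tested.

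Members of the reactive astrocyte lists rose and none fell. The A1 and A2 lists name states seen after inflammation and after ischemia. On the pan-reactive list 4 of 11 rose: Vim and Gfap, the intermediate filaments, Osmr, the oncostatin M receptor, and S1pr3, a sphingosine phosphate receptor, by 3.22 ± 0.39, 2.51 ± 0.11, 1.38 ± 0.14 and 1.04 ± 0.23 on the log2 scale. On the A1 list 1 of 11 rose, Ggta1, a glycosyltransferase, by 0.82, and on the A2 list 2 of 9, the membrane proteins Cd109 and Emp1, by 2.38 and 2.05. The median over the tested members was 0.58, -0.01 and 0.75 on the 3 lists in turn, and the lists were not compared by a test. Gfap, Vim, Osmr, Ggta1, Cd109 and Emp1 are among the genes with RT-qPCR primers in the study. The study reported upregulation of Gfap and of other astrocytosis genes in cKO cortex. The calls of S1pr3 and Emp1 were lost without any 1 mouse other than cKO 1 (adjusted p up to 0.147 and 0.0931), and that of Ggta1 without cKO 2, 3 or 4 or Ctrl 2, 3 or 4 (up to 0.0807). Without Ctrl 1 and Ctrl 4, 3 of the 11 pan-reactive genes and 0 of the A1 and A2 genes were called.

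Genes known from disease-associated microglia rose as well: 6 of 17, with a median of 0.35 over the list. Gpnmb, a lysosomal membrane glycoprotein, measured 21.4, 62.3, 63.6 and 48.9 CPM in cKO 1 to 4 and 3.45, 2.71, 3.89 and 3.63 CPM in Ctrl 1 to 4. All cKO mice were well above all Ctrl mice, and the log2 fold change was 3.83 ± 0.34 (adjusted p = 0.000133). Lgals3, the lectin galectin-3, measured 2.55, 28.2, 26.4 and 19.7 CPM in cKO and 0.44, 0.66, 0.22 and 0.44 CPM in Ctrl. The cKO 1 mouse was several-fold below the other cKO mice and still above every Ctrl mouse, and the log2 fold change was 5.41 ± 0.76 (adjusted p = 0.0032). The summed counts were 1051 in cKO and 24 in Ctrl, a ratio of 42.6 (95% exact interval 28.5 to 66.8, counting error only). Cd9 and Cd63, tetraspanins of endosomes and the cell surface, rose by 1.52 and 0.90, and the lysosomal proteases Ctsb and Ctsd, picked after their values were seen, by 0.26 and 0.32.

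Lgals3, Cd9 and Cd63 were enriched in IP RNA (log2 3.55, 2.45 and 3.48), Gpnmb fell between the classes (0.58), and the microglial markers Cx3cr1, P2ry12 and Tmem119 were at -0.75, -0.48 and -2.54. In these Ctrl TRAP mice Lgals3 measured 0.10 to 0.23 CPM in Input, where 3 counts are 0.131 to 0.175 CPM, and 1.33 to 2.35 CPM in IP. Enrichment in Ctrl mice cannot show which cells hold the RNA that rose in cKO. The microglial list summed to 586 CPM in cKO 1, 812, 802 and 747 CPM in cKO 2 to 4, and 625 to 708 CPM in Ctrl. It was lowest in cKO 1, as these genes were among the cKO mice, and its part in their rise was not tested. Without cKO 1, Lgals3, Gpnmb, Cd9 and Cd63 were all called, while Ctsb was lost without any 1 mouse other than cKO 1 (adjusted p up to 0.112) and Ctsd without cKO 2, cKO 3 or any Ctrl mouse (up to 0.139). Gpnmb was the 1 gene of the 17 called without Ctrl 1 and Ctrl 4.

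**Figure D4:**
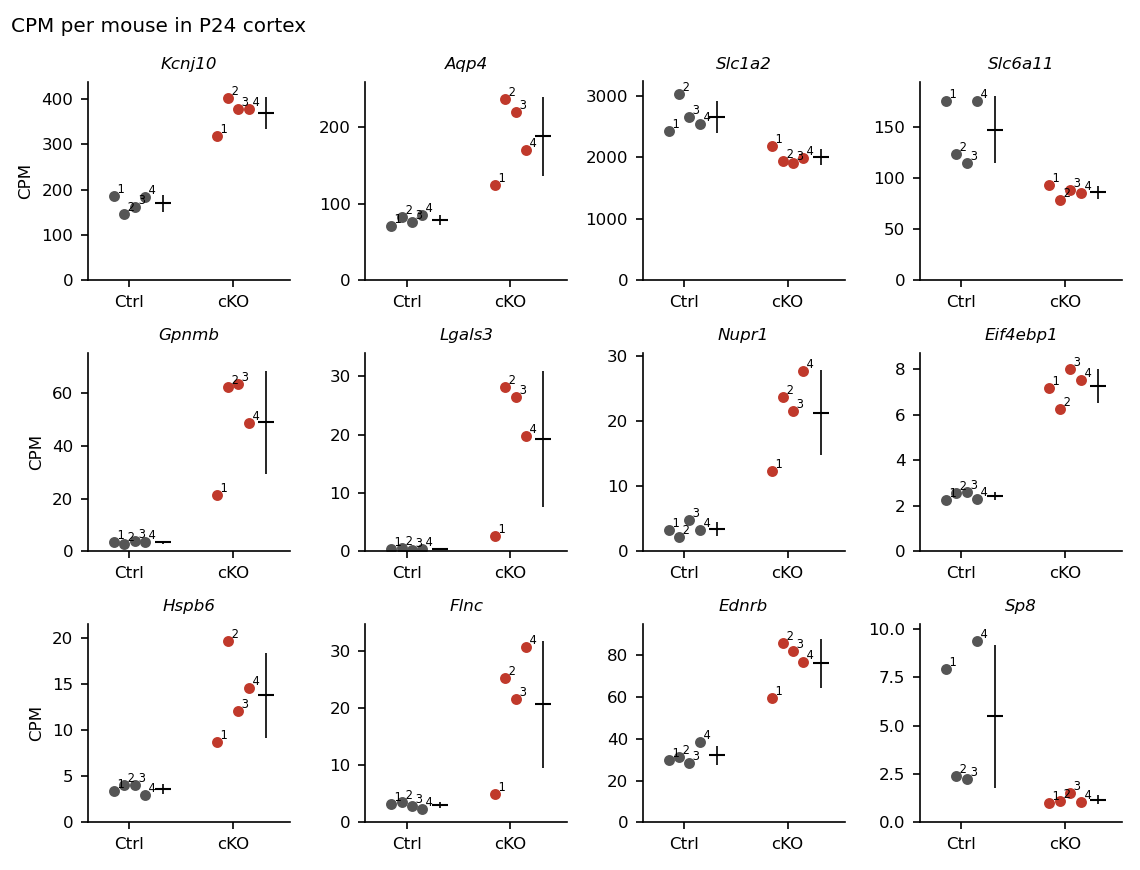
CPM of 12 genes in each P24 mouse (points, labelled by mouse number), grey for Ctrl and red for cKO, with the mean and SD of 4 mice as a dash and bar; each y axis starts at 0. Kcnj10 and Eif4ebp1 are high in all 4 cKO mice, Gpnmb, Lgals3 and Flnc are lowest in cKO 1 among the cKO mice, and Sp8 is high in Ctrl 1 and Ctrl 4 only.

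Genes of the integrated stress response rose. This programme slows translation when amino acids are short or mitochondria fail and raises the targets of the transcription factor ATF4. Of 22 genes tested 7 rose, none fell and the median was 0.31, and without Ctrl 1 and Ctrl 4 5 were called. Nupr1, a stress-induced nuclear protein, measured 12.4, 23.6, 21.5 and 27.7 CPM in cKO 1 to 4 and 3.30, 2.27, 4.79 and 3.27 CPM in Ctrl 1 to 4. The groups did not overlap, and the log2 fold change was 2.64 ± 0.26 (adjusted p = 0.000275). Gdf15, a secreted stress cytokine, had 44, 67, 61 and 102 counts in cKO and 0, 2, 1 and 2 counts in Ctrl. Every Ctrl mouse was under the limit of 3 counts, and the ratio of the summed counts, 274 against 5, was 53.3 (95% exact interval 22.6 to 165, counting error only; adjusted p = 0.000127). Eif4ebp1, a repressor of translation initiation, measured 7.19, 6.27, 8.04 and 7.55 CPM in cKO and 2.27, 2.57, 2.62 and 2.32 CPM in Ctrl, a log2 fold change of 1.57 ± 0.13 with little spread within either group. Aldh1l2, a mitochondrial folate enzyme, rose by 1.47, and the transcription factor Atf5, the serine synthesis enzyme Psat1 and the amino acid transporter subunit Slc3a2, picked after their values were seen, by 0.72, 0.43 and 0.39. Atf5 was not called without cKO 2, cKO 3, Ctrl 2, Ctrl 3 or Ctrl 4 (adjusted p up to 0.0763). The unfolded protein response of the endoplasmic reticulum, a separate programme, had 0 of 17 genes called (2 at an unadjusted p under 0.05, 0 with DESeq2 and 0 with the likelihood ratio test) and a median of 0.04.

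Among heat shock genes, whose products keep other proteins folded, 5 of 18 rose. Hspb6, a small heat shock protein, measured 8.74, 19.7, 12.1 and 14.6 CPM in cKO 1 to 4 and 3.45, 4.11, 4.11 and 2.98 CPM in Ctrl 1 to 4, with no overlap and a log2 fold change of 1.91 ± 0.23 (adjusted p = 0.00116). Cryab, the small chaperone alpha B crystallin, rose by 0.96, Serpinh1, a collagen chaperone, by 0.69 and Hspa1b by 0.66. Hspa1b has a near-identical copy, Hspa1a, between which reads may be divided. The calls of Cryab, Serpinh1 and Hspa1b were each lost when some single mice were left out (adjusted p up to 0.101, 0.0639 and 0.085), in each case including cKO 2 and Ctrl 2 and 3. The list median was 0.10. Of 20 genes of the p53 response 4 rose: Eda2r, a TNF receptor family member, by 2.64 ± 0.38, Phlda3, Trp53 itself and the nuclease Aen, by 0.59, 0.42 and 0.38. Hspb6 was the 1 heat shock gene called without Ctrl 1 and Ctrl 4, and 0 of the p53 genes were.

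The promoters of Nupr1 and Hspb6 are shown because each is the gene with the lowest p among the called members of its list whose promoter holds the letters searched for, those bound by ATF4 with C/EBP factors and by heat shock factors. The 250 bases before the annotated start were read on the coding strand from RefSeq (GRCm38.p6), at chr7:126625471-126625720 (minus strand) for Nupr1 and chr7:30553051-30553300 (plus strand) for Hspb6. In the annotation used for gene positions elsewhere in this report, Hspb6 spans 30552178 to 30555443, so its bases shown here lie inside that span. Capitals mark TTGCATCA, the ATF4 and C/EBP composite letters, in Nupr1, and GAANNTTC, a pair of facing heat shock units, in Hspb6.
Nupr1: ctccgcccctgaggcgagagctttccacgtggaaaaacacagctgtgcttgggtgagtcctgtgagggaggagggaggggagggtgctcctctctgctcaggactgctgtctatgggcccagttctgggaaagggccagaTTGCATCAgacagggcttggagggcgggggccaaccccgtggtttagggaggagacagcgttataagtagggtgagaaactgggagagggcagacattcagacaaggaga
Hspb6: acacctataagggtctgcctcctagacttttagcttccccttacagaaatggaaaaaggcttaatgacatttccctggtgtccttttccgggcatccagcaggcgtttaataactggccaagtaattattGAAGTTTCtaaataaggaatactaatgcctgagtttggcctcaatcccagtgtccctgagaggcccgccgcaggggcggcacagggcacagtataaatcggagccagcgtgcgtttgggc
The match begins 110 bases before the start in Nupr1 and 120 bases before it in Hspb6. Of the genes tested, 12887 have a promoter in the table, and 0.652% of these hold TTGCATCA on either strand within 250 bases, against 1.01% of the 199 genes that rose with a promoter. It is found in 5 of the 19 genes of the integrated stress response list with a promoter (26.3%), of which Nupr1 was called. GAANNTTC, which reads the same on both strands, is found in 6.29% of all, in 7.04% of those that rose and in 7 of 14 heat shock genes with a promoter (50%). The match is a description of the letters and not of a bound site.

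Genes of the actin cytoskeleton and of adhesion to the matrix rose. Of 30 actin and focal adhesion genes 9 rose, none fell and the median was 0.15, with 14 called without cKO 1 and 2 without Ctrl 1 and Ctrl 4. Flnc, a filamin that crosslinks actin, measured 5.04, 25.3, 21.6 and 30.7 CPM in cKO 1 to 4 and 3.30, 3.59, 2.84 and 2.40 CPM in Ctrl 1 to 4. The groups did not overlap, although cKO 1 lay close to Ctrl, and the log2 fold change was 2.76 ± 0.45 (adjusted p = 0.00775). Pdlim4, which links actin to signalling proteins, rose by 1.41 ± 0.17, and Tagln2 and Cnn3, actin-binding proteins of the calponin family, by 1.33 ± 0.25 and 1.14 ± 0.20. Fermt2, a kindlin that activates integrins, rose by 0.42 ± 0.04, and Msn and Flna, which tie actin to the membrane, by 0.98 and 0.32, all 3 picked after their values were seen. The calls of Tagln2, Msn and Flna were lost without any 1 mouse other than cKO 1 (adjusted p up to 0.0706, 0.0703 and 0.118), and that of Cnn3 without cKO 4, Ctrl 2 or Ctrl 3 (up to 0.0567).

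Of 17 integrins 3 rose: Itga7, a laminin receptor subunit, by 1.09 ± 0.10, from 11.3 to 14.2 CPM in Ctrl to 22.5 to 30.7 CPM in cKO, and Itgb1 and Itgb8 by 0.53 and 0.35. Itga7 was called in every fit that left out 1 mouse, whereas Itgb1 was lost without any 1 mouse other than cKO 1 and Itgb8 without cKO 2, 3 or 4, Ctrl 1 or Ctrl 3 (adjusted p up to 0.147 and 0.0624). Of 23 tetraspanins 4 rose, Cd9 and Cd63 above with Cd151 and Cd81, which partner with integrins, by 0.71 and 0.34, and Cd151 was lost without cKO 2, 3 or 4, Ctrl 1 or Ctrl 2 (adjusted p up to 0.0607). Of 34 matrix proteins 2 rose, Ccdc80 by 0.90 ± 0.13 and the perineuronal net proteoglycan Ncan by 0.33, the latter lost without any 1 mouse other than cKO 1 (adjusted p up to 0.136), and the median was -0.01. Of 22 matrix proteases and their inhibitors 3 rose and 1 fell. The proteases Adamts1 and Plat, the tissue plasminogen activator, rose by 1.13 and 0.99 and the ADAMTS-like protein Adamtsl5 by 0.97, while Pcsk6, a proprotein convertase, fell by 0.79 ± 0.10, from 12.6 to 15.1 CPM in Ctrl to 7.19 to 8.87 CPM in cKO. The call of Adamts1 was lost without Ctrl 1 (adjusted p = 0.0522).

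Of 35 growth factor and cytokine receptors 7 rose and none fell, with a median of 0.08, whereas of 36 secreted factors 3 rose and 3 fell, with a median of -0.13, and the difference between the lists was not tested. Ednrb, the endothelin B receptor, measured 59.7, 86.0, 82.1 and 76.7 CPM in cKO 1 to 4 and 30.1, 31.5, 28.3 and 38.5 CPM in Ctrl 1 to 4. All cKO mice exceeded all Ctrl mice, with a log2 fold change of 1.24 ± 0.12 (adjusted p = 0.000237). Lrig1, which restrains EGF receptor signalling, rose by 0.86 ± 0.09, and Egfr and the collagen receptor Ddr1, picked after their values were seen, by 0.45 and 0.65. Osmr is given above. Tnfrsf1a, the main TNF receptor, measured 10.0, 14.7, 14.0 and 15.9 CPM in cKO and 6.16, 6.60, 6.13 and 5.74 CPM in Ctrl. The groups were apart, at a log2 fold change of 1.14 ± 0.14 (adjusted p = 0.00116).

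Of 17 genes of NF-kB and TNF receptor signalling 5 rose, with a median of 0.30, Ltbr, the lymphotoxin beta receptor, by 0.82, Tnfrsf19 by 0.59 and the adhesion molecule Vcam1 by 0.81, the last lost without cKO 2, 3 or 4, Ctrl 1, Ctrl 3 or Ctrl 4 (adjusted p up to 0.0842). Of 20 interferon response genes 1 rose, the membrane protein Ifitm3, by 1.49 ± 0.26, a call lost without Ctrl 2 (adjusted p = 0.0516). Of these lists, 4 receptors, 2 NF-kB and TNF receptor genes and 0 interferon genes were called without Ctrl 1 and Ctrl 4.

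Among ligands, Gdf15 (above) and Hbegf, an EGF receptor ligand, rose, Hbegf by 1.46 ± 0.25, and Ptn, a heparin-binding growth factor, by 0.32. Fgf1, Cxcl12 and Cxcl14 fell by 0.50, 0.38 and 0.31 on the log2 scale. Ptn was lost without cKO 2, 3 or 4, Ctrl 1, Ctrl 2 or Ctrl 3 (adjusted p up to 0.144), Cxcl12 without cKO 4 (0.0514) and Cxcl14 without cKO 2 or cKO 4 (up to 0.0567). Of 42 genes of the Notch, Wnt, Bmp and Hedgehog pathways 3 rose and 2 fell. Chrdl1, a Bmp antagonist secreted by astrocytes, measured 30.4, 26.3, 23.2 and 20.7 CPM in cKO 1 to 4 and 10.8, 8.80, 10.5 and 9.59 CPM in Ctrl 1 to 4, a log2 fold change of 1.34 ± 0.12 in which cKO 1 was the highest. The Wnt receptor Fzd10 rose by 1.26 and Smad3 by 0.30, and the polarity gene Vangl2 and the Wnt coreceptor Lrp4 fell by 0.40 and 0.37. Smad3 and Vangl2 were lost without any 1 mouse other than cKO 1 (adjusted p up to 0.148 and 0.101). Of 18 genes of the cell cycle 3 rose, the G1 cyclins Ccnd1 and Ccnd2 by 1.04 ± 0.16 and 0.56 ± 0.06, and Rb1 by 0.32, the last lost without cKO 2, 3 or 4, Ctrl 1, Ctrl 3 or Ctrl 4 (adjusted p up to 0.105).

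Of 34 genes of neuronal adhesion and guidance 8 fell and none rose, and the median was -0.11. Mdga1, which limits synapse formation, fell by 0.56 ± 0.09, from 47.6 to 57.9 CPM in Ctrl to 30.6 to 40.8 CPM in cKO, and the cadherin Cdh4 by 0.53 ± 0.09. The netrin family gene Ntng1 and the netrin receptor Dcc fell by 0.43 and 0.34, and Nrxn3 and Robo1, a presynaptic organiser and a guidance receptor picked after their values were seen, by 0.26 and 0.24. Of 24 glutamate receptor genes 3 fell, among them Grin2c (above) and Grik2 by 0.26. Of 27 genes of vesicles and release Syt9 fell by 0.78 and Syt15 rose by 3.27 ± 0.37. Syt15, a synaptotagmin that does not bind calcium, measured 3.02, 6.82, 7.49 and 6.55 CPM in cKO 1 to 4 and 0.44, 0.51, 1.12 and 0.36 CPM in Ctrl 1 to 4, with no overlap.

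Without Ctrl 1 and Ctrl 4, 1 of the 8 adhesion genes (Dcc, adjusted p = 0.0361) and 0 of the 3 glutamate receptor genes were called. Ntng1, Dcc, Nrxn3, Robo1 and Grik2 each lost the call without cKO 2, without cKO 3 and without 2 or more other mice (adjusted p up to 0.132, 0.104, 0.0737, 0.0855 and 0.102), while Mdga1, Cdh4 and Syt9 kept it in all 8 such fits. Of 24 immediate early genes, which neuronal activity induces, Fosb fell by 0.69, and the list median was -0.25 with 20 of 24 below 0. Npas4 and Fos, picked after their values were seen, stood at -0.89 ± 0.27 and -0.48 ± 0.19 without passing (adjusted p = 0.156 and 0.291). Fosb was lost without cKO 2, cKO 4 or any Ctrl mouse (adjusted p up to 0.153).

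The genes with the lowest p included several outside these lists. Dio2, the deiodinase with which astrocytes activate thyroid hormone, measured 113, 116, 122 and 115 CPM in cKO 1 to 4 and 59.6, 70.1, 64.5 and 72.3 CPM in Ctrl 1 to 4, with all cKO mice close together and a rise of 0.81 ± 0.06 on the log2 scale (adjusted p = 6.66e-05). Tmem176a, a membrane protein, rose by 1.23 ± 0.11, and Pea15a, a death effector domain protein abundant in astrocytes, by 0.79 ± 0.07. Among the genes that fell, Myoc, a secreted glycoprotein, measured 4.50, 4.76, 5.48 and 3.70 CPM in cKO and 13.1, 14.1, 12.6 and 13.4 CPM in Ctrl, at -1.52 ± 0.11 (adjusted p = 4.86e-05), and Myocos, which overlaps it and may share its reads, fell by 1.18. Pygm, the glycogen phosphorylase of muscle and astrocytes, Plpp3, a lipid phosphatase, Cyp4f15, a fatty acid hydroxylase, and Gm44579, without a known function, fell by 0.88, 0.52, 1.35 and 1.16, and Cbarp, a regulator of calcium channels that was depleted from IP, by 0.55.

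Several called genes lie side by side. Of 385 called genes with a position, 148 lay within 200000 bases of another, in 62 groups. The like share over all genes tested was not computed, so this count is a description and not a trait of the called genes. Some groups are overlapping annotations, such as Prnp with Prn and Ctsd with Gm49369. On chromosome 11 Gm26668, a noncoding RNA, spans 102863337 to 103075903 and overlaps both Gfap and Fam187a. Since the strand setting of the counting is not known, reads of these 3 genes cannot be told apart where they overlap. Gm26668 rose by 1.60 ± 0.08 and Fam187a by 5.86 ± 0.24, with 115, 108, 124 and 99 counts in cKO and 2, 3, 1 and 1 in Ctrl, a ratio of 62.0 (95% exact interval 29.8 to 155, counting error only). On chromosome 17 Vapa, which tethers the endoplasmic reticulum to other membranes, and Rab31, a GTPase, picked after its values were seen, lie in one such group and fell by 0.93 and 0.41. On chromosome 6 Ltbr, Tnfrsf1a and Cd9 lie within one such group, and on chromosome 1 Vangl2, Dcaf8, Pea15a, Kcnj10 and Tagln2 lie within another. The targeted locus, whose genes were left out of these groups, lies between Pea15a and Kcnj10. The part of the edited locus in the values of the genes around it was not tested.

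These genes were also read in the TRAP mice, in which both genotypes carry the driver, since the tag depends on it. Fam187a differed by 5.14 ± 0.35 on the log2 scale at P17 and by 0.17 ± 0.29 in Input. Vapa differed by -1.06 ± 0.08 at P17 and 0.24 ± 0.20 in Input, and Rab31 by -0.63 ± 0.06 and 0.21 ± 0.15. Kcnj10 differed by 0.84 ± 0.09 at P17 and 1.00 ± 0.37 in Input, and Myoc by -1.02 ± 0.21 and -1.55 ± 0.31. None of these 5 genes was called in Input (adjusted p = 0.885, 0.812, 0.812, 0.812 and 0.25). Gfap measured 301, 486 and 346 CPM in Input of cKO mice and 127, 152 and 113 CPM in Input of Ctrl mice. Gm26668 measured 542, 755 and 586 CPM against 397, 440 and 363 CPM there. In bulk Gfap and Gm26668 rose by 2.51 and 1.60 on the log2 scale. On the pan-reactive list 1 gene was called in Input, and this was Vim. The part of the driver in these values was not tested.

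In Input cortex of the other P24 mice, which share no sample with the bulk comparison, 26 of 23828 genes were called between cKO and Ctrl, or 0.109%. The count was 112 without cKO 1 of these TRAP mice and 4 or 5 without any 1 of the Ctrl mice. Of the genes that rose in bulk, 282 were tested there: 273 had the same sign (96.8%), 18 were called in the same direction (0.0923% of all genes tested in Input were called higher), none in the other, and the median log2 fold change was 0.61. Of those that fell, 103 were tested, 77 had the same sign (74.8%), 1 was called (0.0168% of all were called lower) and the median was -0.16. Over all genes tested in both, 61.5% had the same sign. Lgals3, Vim, Nupr1, Tmem176a, Cd9 and Cnn3 were among the 18, at 5.46, 3.41, 2.48, 1.67, 1.46 and 1.30. Of the transporters of glutamate, GABA and serine described above, Slc6a11 stood at -0.26 ± 0.28 in Input, Slc1a2 at -0.11 ± 0.27, Slc1a3 at 0.06 ± 0.21 and Slc7a10 at 0.27 ± 0.21, against -0.78, -0.41, -0.40 and -0.75 in bulk. None of the 4 was called in Input, and the difference between the 2 sets of mice was not tested.

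**Figure D5:**
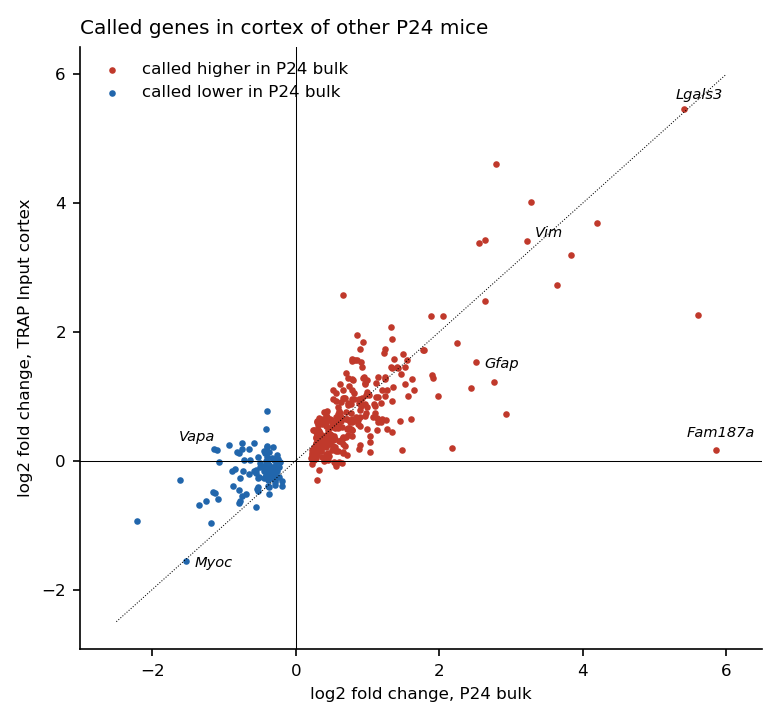
Each point is a gene called in P24 bulk cortex, with its log2 fold change there (4 cKO and 4 Ctrl mice) on the x axis and in Input cortex of other P24 mice (3 and 3) on the y axis; the dotted line marks equal values. Of 282 genes that rose in bulk 273 lie above 0 on the y axis, of 103 that fell 77 lie below it, called genes at the targeted locus are not drawn, and Fam187a and Vapa lie close to 0 in Input.

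At P17 the called genes differed less: their median log2 fold change was 0.22 for those that rose at P24 and -0.11 for those that fell. Because these genes were chosen on the P24 difference, the smaller P17 values are a description. Age cannot be told apart from any difference in sequencing between the P17 and P24 libraries, though each contrast of genotypes is within an age. The difference between the P24 and P17 contrasts, tested over the 16 bulk libraries, passed for 11 of 23395 genes (0.047%), 8 that rose (0.0342%) and 3 that fell (0.0128%) at P24, all with the larger change at P24. They include Gfap, Vim, Aldh1l1, Aldh1l2, Ednrb and Gm26668 (which overlaps Gfap) among those that rose and Pygm among those that fell. Leaving out 1 mouse gave 5 to 149 genes, and the 149 were found without cKO 1 of P24.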

How the data were processed

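The deposited tables hold whole-number read counts per Ensembl gene, made by the authors with RNA STAR in Galaxy against MM10 and not normalized. The counting tool, its strand setting and its annotation are not given in the sources used here. RNA was reverse-transcribed with oligo-dT, and 53236 of 53342 identifiers were paired with a symbol.

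For each comparison, genes with low counts were removed (edgeR filterByExpr, minimum count 10, total 15), factors were computed by TMM, and edgeR 4.0.16 quasi-likelihood tests were run in R 4.3.3 with Benjamini-Hochberg adjustment over all genes tested. Levels are CPM (edgeR cpm with TMM factors), SE is that of the log2 fold change, and a gene was called at an adjusted p under 0.05. The P24 fit held the 8 P24 bulk libraries only. A gene was enriched in IP if called with a log2 of at least 1 between IP and Input of Ctrl mice. IP and Input RNA of the same number came from the same mouse, and this fit did not pair them. The scripts were tested on simulated data. Replicates are separate mice, and intervals of count ratios are exact and cover counting error only.

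Named genes were the called members of each list, up to 4 per direction by size of change (mean log2 CPM of at least 0), the 10 genes with the lowest p in each direction (at least 1), and the first 3 markers of cell type lists without a call. Other genes are said to be picked after their values were seen. The members and lists were chosen with earlier results of these data known. Lists are described by counts and medians with no test of the list. Results for the targeted gene and a few others are not reported here. Promoters came from RefSeq (GRCm38.p6).

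The alternatives were RLE factors, a minimal and a stricter filter, replicate number as a block, DESeq2 1.42.0, the edgeR likelihood ratio test, one fit of all bulk libraries and leaving out each mouse. Leaving out Ctrl 1 with Ctrl 4, and sex as a term, were added after seeing the data.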

Additional observations from a re-analysis of the deposited data

Results flagged for a closer look

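In 23 of 342 groups of 4 mice checked, 1 mouse lay far from the other 3 of its group by Dixon's test at the 95% level, which chance does in about 1 of 20 groups. The mouse Ctrl 1 lay below the others of its group in Cd81 (211 CPM against 225 to 228). In Ctrl 1, values above those of the group's other mice were found for Col1a1 (54.2 CPM against 18.3 to 22.8) and Col1a2 (44.9 CPM against 23.3 to 25.4). The mouse Ctrl 2 lay below the others of its group in Pdlim4 (5.58 CPM against 6.18 to 6.28) and Dcaf8 (102 CPM against 109 to 110.3). In Ctrl 2, values above those of the group's other mice were found for Slc7a10 (26.6 CPM against 22.4 to 23.02) and Tagln2 (4.92 CPM against 4.03 to 4.07). The mouse Ctrl 3 lay below the others of its group in Tmem119 (12.8 CPM against 14.2 to 14.4), Aldh1l2 (2.84 CPM against 4.04 to 4.21) and Igfbp2 (18.8 CPM against 24.7 to 25.0). In Ctrl 3, values above those of the group's other mice were found for Cbarp (351 CPM against 310.1 to 314) and Slc3a2 (82.1 CPM against 77.3 to 77.7). The mouse Ctrl 4 lay above the others of its group in Serpinh1 (24.4 CPM against 20.7 to 21.3). In cKO 1, values below those of the group's other mice were found for Cd9 (28.6 CPM against 59.4 to 64.5), Phlda3 (17.2 CPM against 21.6 to 22.5), Serpinh1 (25.1 CPM against 37.8 to 40.2), Tagln2 (5.17 CPM against 12.4 to 12.9), Ccnd1 (41.6 CPM against 65.6 to 70.6), Tmem176a (16.3 CPM against 20.9 to 21.5) and Ddr1 (76.6 CPM against 99.1 to 101). The mouse cKO 2 lay below the others of its group in Aen (18.2 CPM against 19.5 to 19.7) and Syt9 (4.04 CPM against 5.51 to 5.75). In cKO 3, values above those of the group's other mice were found for Gstm3 (9.84 CPM against 6.19 to 6.65).

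The cKO against Ctrl difference was larger at P24 than at P17 for Aldh1l1 (P24 minus P17 0.94 ± 0.16, adjusted p = 0.0302), Vim (P24 minus P17 2.81 ± 0.45, adjusted p = 0.0195), Gfap (P24 minus P17 1.48 ± 0.15, adjusted p = 0.000125), Aldh1l2 (P24 minus P17 1.54 ± 0.25, adjusted p = 0.019), Ednrb (P24 minus P17 0.95 ± 0.15, adjusted p = 0.0182), Gm26668 (P24 minus P17 1.10 ± 0.10, adjusted p = 6.38e-05) and Pygm (P24 minus P17 -0.97 ± 0.12, adjusted p = 0.00105), in log2 units with SE, by an edgeR interaction term over 16 mice with Benjamini-Hochberg adjustment. Each difference has the sign of the P24 change. Age and any difference in sequencing between the P17 and P24 libraries cannot be told apart here.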

How the results depend on the processing

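The 388 genes called at P24 became 385 with RLE factors, 421 with the stricter filter, 501 in one fit of all bulk libraries, 382 with sex as a term, 618 with the minimal filter, 589 with DESeq2 and 619 with the likelihood ratio test, and each of these had more genes called higher than lower. Leaving out 1 mouse gave 216 to 950, and leaving out Ctrl 1 and Ctrl 4 gave 101, of which 94 were among the 388. In Input, the 26 genes became 25 with RLE factors, 112 with the minimal filter, 127 with DESeq2, 137 with the likelihood ratio test and 4 to 112 without 1 mouse. For the difference between ages, the 11 became 11 with RLE factors, 62 with the minimal filter and 5 to 149 without 1 mouse. The causes were not tested. The 17304 genes called between IP and Input became 16154 to 17296 without 1 mouse. Same-numbered P24 bulk mice matched in sex, by Xist RNA, but no label ties a number to a litter, and the numbers were not taken as pairs (correlations of their deviations 0.218, 0.0286, 0.0763 and 0.0978, and cKO 2 correlated best with Ctrl 4). A replicate block in the fit gave 410 genes at P24, 344 of them among the 388, 8 in Input and 55 between ages. None of the 127 named called genes changed sign in any of these settings. Genes that were not called did. Without Ctrl 1 and Ctrl 4, Tmem119 stood at 0.019, Lyve1 at 0.013, Pdgfrb at -0.055, Col1a1 at 0.060, Prox1 at -0.090, Dsp at -0.32 and Omp at 0.22, and with sex as a term Ttr at 0.13. Over the fits without 1 mouse, the log2 fold change ran from -0.026 to 0.0035 for Cx3cr1, from -0.078 to 0.059 for Tmem119, from -0.36 to 0.16 for Lyve1, from -0.13 to 0.051 for Cldn5, from -0.032 to 0.11 for Pdgfrb, from -0.12 to 0.031 for Abcc9, from -0.52 to 0.14 for Col1a1, from -0.63 to 0.69 for Ttr, from -0.55 to 0.36 for Folr1, from -0.026 to 0.046 for Shisa3, from -0.22 to 0.38 for Dsp, from -0.15 to 0.027 for Lef1, from -0.28 to 0.32 for Hba-a1, from -0.33 to 0.34 for Hba-a2 and from -0.26 to 0.12 for Hbb-bs. Depth limits the genes near 3 counts (0.202 to 0.238 CPM), where folds carry wide intervals.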

Other observations

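Of 4 further gene families, picked after their values were seen and so given as a description, calcium-binding S100a genes rose in 4 of 8 members tested and none fell. S100a4 and S100a6 rose by 4.20 ± 0.64 and 2.26 ± 0.31 on the log2 scale, S100a1 by 0.85 ± 0.10 and S100a16 by 0.70 ± 0.16, and S100a4 measured 1.61, 14.1, 11.2 and 7.77 CPM in cKO 1 to 4 and 0.363 to 0.524 CPM in Ctrl. In Input, S100a4 and S100a6 were called as well, at 3.69 and 1.83. Insulin-like growth factor binding proteins rose in 3 of 6 members, among them Igfbp2 by 1.25 ± 0.19 and Igfbp5 by 1.03 ± 0.10. Both caveolin genes tested, Cav1 and Cav2, which form membrane pits, rose by 1.42 ± 0.23 and 1.08 ± 0.11. Glutathione transferases of the Gstm family moved in both directions, 3 of 7 up (Gstm1 by 0.90, Gstm2 by 0.73 and Gstm3 by 0.93) and Gstm5 down by 0.41, and in Input Gstm1 and Gstm3 were called at 1.74 and 1.85 while Gstm5 stood at 0.49. The members of the Gstm family are similar in sequence, and reads may be divided between them. The call of S100a16 was lost without any 1 mouse other than cKO 1 (adjusted p up to 0.154) and that of Gstm3 without Ctrl 1, Ctrl 2 or Ctrl 4 (up to 0.0783).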
